A study of Danio rerio with 4 samples.

Results

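The RNA exosome subunit genes were taken as every gene of the deposited tables whose symbol is exosc followed by a number from 1 to 10, and 10 of the 32512 annotated zebrafish genes met this rule. Of the 10, 7 had counts (exosc2, exosc3, exosc4, exosc5, exosc8, exosc9 and exosc10), and all 7 passed the filter on low counts. The other 3, exosc1, exosc6 and exosc7, were listed at 0 in all 4 libraries and were not quantified, so no value is given for them. RNA came from whole embryos at 48 hours post fertilisation (hpf), all of the wild-type strain Tubingen. The hace1 morphants had received a splice-blocking antisense morpholino (MO) directed at the region of hace1 that encodes its catalytic HECT domain, and the controls a standard control MO. Hace1 is a HECT-type E3 ubiquitin ligase with tumour suppressor activity, and the study asked which transcripts change when it is knocked down. Each group had 2 libraries (A and B), each a pool of 3 RNA samples of about 100 embryos.

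The RNA exosome is a multi-subunit machine that degrades or trims RNA from its 3′ end in the nucleus and the cytoplasm. In yeast and human, subunits related to the bacterial RNase PH form a ring (EXOSC4 to EXOSC9), and subunits with S1 and KH RNA-binding domains form a cap over the ring's entry pore (EXOSC1 to EXOSC3). Ring and cap have no catalytic activity in human, and RNA is degraded by the associated nucleases DIS3 and EXOSC10, the human counterpart of yeast Rrp6. The complex matures ribosomal, small nuclear and small nucleolar RNAs and clears faulty transcripts, and inherited variants of human EXOSC3, EXOSC8 and EXOSC9 cause disorders in which the cerebellum and spinal motor neurons degenerate.

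Library totals lay between 5192490 and 10413981 estimated counts, and control A was the shallowest. The typical distance between libraries, taken as the median absolute log2 difference over 6390 well-counted genes (mean count 100 or more), was 0.13 within the hace1 pair and 0.24 within the control pair. Each hace1 library was 0.31 from control A and 0.25 from control B, so the control pair was spread about as widely as control B was from the hace1 pair. Hace1 RNA itself was at 13.7 and 13.5 CPM (counts per library brought to a common size) in the hace1 libraries, against 18.6 and 13.5 CPM in the control libraries (log2 fold change -0.19, standard error (SE) 0.22, adjusted p = 0.648 by limma-voom). The hace1 count thus gave no sign of the knockdown. A splice-blocking oligonucleotide need not lower the total count of its target, and no exon values of hace1 are given here. Whole-embryo markers were present, among them mylpfa (muscle), krt4 (skin), hbae3 (blood) and elavl3 (neurons), while 12 of 27 such marker genes, gfap and sox10 among them, were listed at 0. The labels give 2 libraries per sequencing chip, but the sources used here do not say which libraries shared one. If chips followed the groups, the chip and the morpholino cannot be told apart. If they followed the letters A and B, the chip and the letter cannot be told apart. In RNA from whole embryos, more cells of a type and more RNA per cell cannot be told apart either.

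In hace1 morphants, exosc5 and exosc3 rose 1.80-fold and 1.74-fold over controls. Exosc2, exosc8, exosc4, exosc9 and exosc10 had fold changes between 1.28 and 1.70 that did not pass the test. All 7 quantified subunit genes thus had a log2 fold change above 0, as had 50.5% of the 10832 tested genes. Both hace1 libraries lay above both control libraries for 6 of the 7 (all but exosc4), as they did for 26.7% of all tested genes. Calls were made at a limma-voom p below 0.05 after Benjamini-Hochberg adjustment over all tested genes. This rule called 2.75% of the tested genes, 149 (1.38%) higher and 149 (1.38%) lower, and it called 2 of the 7 subunit genes higher and 0 lower. With library totals in place of the trimmed scaling the split over all genes was 105 higher and 523 lower, and with the scaling computed without the few genes above 1% of a library it was 137 and 245. The median log2 fold change of the subunit genes was 0.57, against 0.01 over all tested genes.

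**Figure D1:**
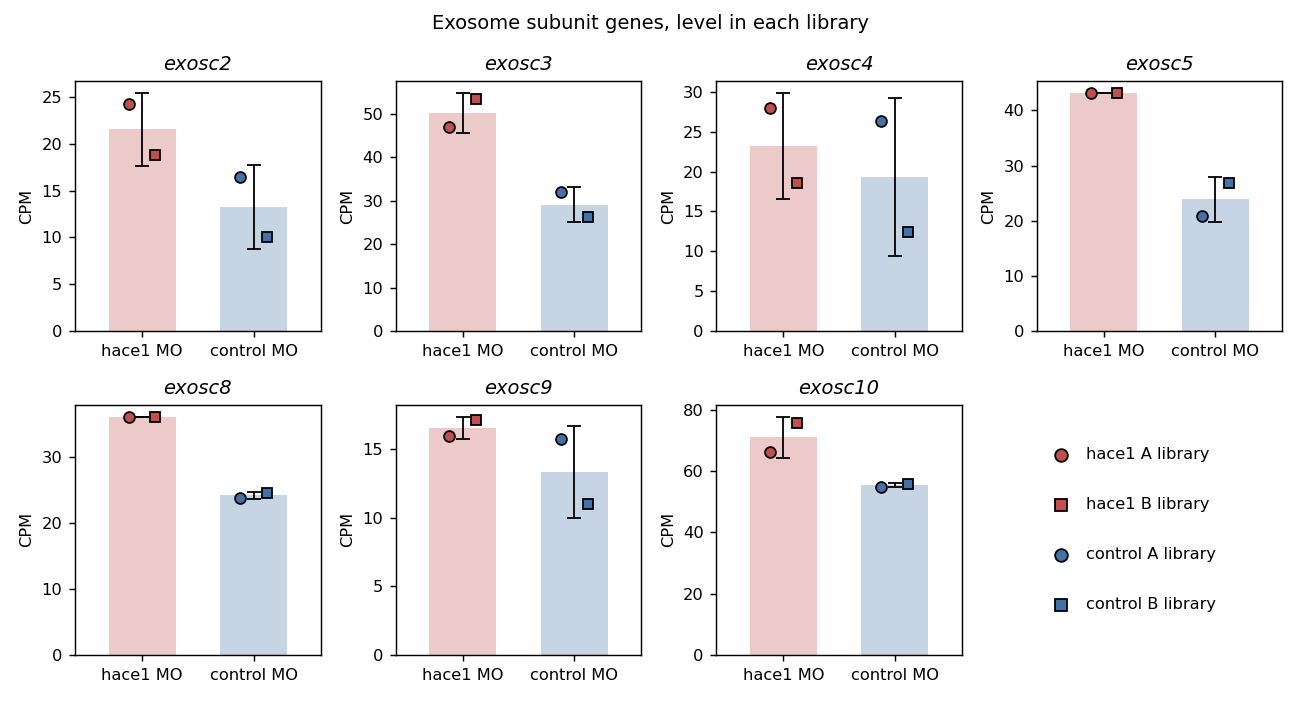
Level of each quantified exosome subunit gene in CPM in the 2 hace1 MO and the 2 control MO libraries; points are libraries, bars are group means and error bars are SD (n = 2 libraries each). The hace1 points lie above the control points in every panel except that of exosc4, where control A (26.4 CPM) lies above hace1 B (18.5 CPM).

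Among the cap genes, exosc3 (ENSDARG00000029187, Zv9 chromosome 14, 53498788 to 53502929, plus strand) encodes the cap subunit known in yeast as Rrp40. It had 47.0 and 53.5 CPM in hace1 A and B, against 31.9 and 26.3 CPM in control A and B. The lowest hace1 library was well above the highest control library. The means were 50.2 ± 4.57 CPM in hace1 morphants and 29.1 ± 4.02 CPM in controls (SD, n = 2 libraries each). On the log2 scale the fold change was 0.80 with an SE of 0.18 (95% interval 0.41 to 1.19, limma-voom adjusted p = 0.043). These values rest on estimated counts of 437 and 529 in hace1 A and B, against 185 and 226 in control A and B.

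Exosc2 (ENSDARG00000028688, chromosome 5, 75251684 to 75257645, plus strand), which encodes the cap subunit known in yeast as Rrp4, had 24.3 and 18.8 CPM in hace1 A and B, against 16.4 and 10.0 CPM in control A and B. The groups did not overlap, but hace1 B and control A differed by less than the libraries of either group. The log2 fold change was 0.77 with an SE of 0.25 (95% interval 0.23 to 1.31, limma-voom adjusted p = 0.105), so a difference close in size to that of exosc3 came with a wider error. Without control B it was 0.36. Exosc1 (ENSDARG00000059841, chromosome 1), the remaining cap gene, was listed at 0.

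Among the ring genes, exosc5 (ENSDARG00000040557, chromosome 18, 34400131 to 34405923, minus strand), whose yeast counterpart is Rrp46, had 43.1 and 43.2 CPM in hace1 A and B, against 20.9 and 26.8 CPM in control A and B. The hace1 libraries were nearly equal, and both stood far above either control. The means were 43.1 ± 0.0229 CPM in hace1 morphants and 23.9 ± 4.15 CPM in controls (SD, n = 2 libraries each). Estimated counts were 401 and 427 in hace1 A and B, against 121 and 231 in control A and B. An SD of 2 libraries is itself uncertain, and the small hace1 SD is no measure of precision. On the log2 scale the fold change was 0.85 with an SE of 0.18 (95% interval 0.45 to 1.24, limma-voom adjusted p = 0.0399). Exosc5 ranked 155th and exosc3 ranked 186th by p among the tested genes.

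Exosc8 (ENSDARG00000068755, chromosome 10, 36026224 to 36034940, plus strand), whose yeast counterpart is Rrp43, had 36.1 CPM in both hace1 libraries, against 23.8 and 24.6 CPM in control A and B. The groups were clearly apart and the libraries within each were close. The log2 fold change was 0.57 with an SE of 0.17 (95% interval 0.20 to 0.94), and its limma-voom adjusted p of 0.0851 missed the threshold. In the known structures EXOSC5 and EXOSC8 form one of the pairs of the ring. The genes of another pair, EXOSC6 and EXOSC7, were listed at 0 (exosc6 on chromosome 7 and exosc7 on chromosome 19).

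EXOSC4 and EXOSC9 (yeast Rrp41 and Rrp45) form the remaining ring pair, and neither gene passed the test. Exosc9 (ENSDARG00000006392, chromosome 1, 17825396 to 17834050, plus strand) had 15.9 and 17.1 CPM in hace1 A and B, against 15.7 and 11.0 CPM in control A and B. Control A was almost as high as hace1 A, and control B stood alone at the low end. The log2 fold change was 0.36 with an SE of 0.22 (limma-voom adjusted p = 0.363), and it was 0.06 without control B and 0.59 without control A. Exosc4 (ENSDARG00000088210, chromosome 2, 1709545 to 1713492, minus strand) had 27.9 and 18.5 CPM in hace1 A and B, against 26.4 and 12.4 CPM in control A and B. Its groups overlapped, with both A libraries high and both B libraries low. The log2 fold change was 0.38 with an SE of 0.31 (limma-voom adjusted p = 0.486), and it was -0.23 without control B and 0.87 without control A.

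Exosc10 (ENSDARG00000037708, chromosome 23, 14883969 to 14915791, plus strand), which encodes the nuclear 3′ exonuclease of the complex, had the highest count of the family. It stood at 66.2 and 75.7 CPM in hace1 A and B, against 54.9 and 55.8 CPM in control A and B. The groups did not overlap, and the gap between them was about as wide as that between the hace1 libraries. The log2 fold change was 0.35 with an SE of 0.16 (95% interval 0.0014 to 0.71, limma-voom adjusted p = 0.221).

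The calls of exosc3 and exosc5 were near the threshold. They were lost when either hace1 library was left out, as were nearly all calls over the tested genes. Those fits take their error from the control pair alone, the wider pair. Without hace1 A the limma-voom adjusted p was 0.42 for exosc3 and 0.427 for exosc5, and without hace1 B it was 0.536 for both, with log2 fold changes between 0.70 and 0.89. Both stayed called when either control library was left out. Those fits take their error from the hace1 pair alone, the closer pair (median distance 0.13, against 0.24 for controls). A call kept there says little about the spread of the controls. Over all 18 other settings, the adjusted p ran from 9.29e-06 to 0.536 for exosc3 and from 2.41e-05 to 0.536 for exosc5, while the log2 fold changes ran from 0.64 to 0.96 and from 0.69 to 1.03. Without control A, the shallowest library, 5 of the 7 genes were called higher, as were 7.38% of 10663 tested genes, and exosc2 (log2 fold change 1.09), exosc4 (0.87) and exosc8 (0.56) joined the 2. Without control B, 3 of the 7 were called higher, with exosc8 (0.59) as the addition, as were 11.8% of 10738 tested genes.

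**Figure D2:**
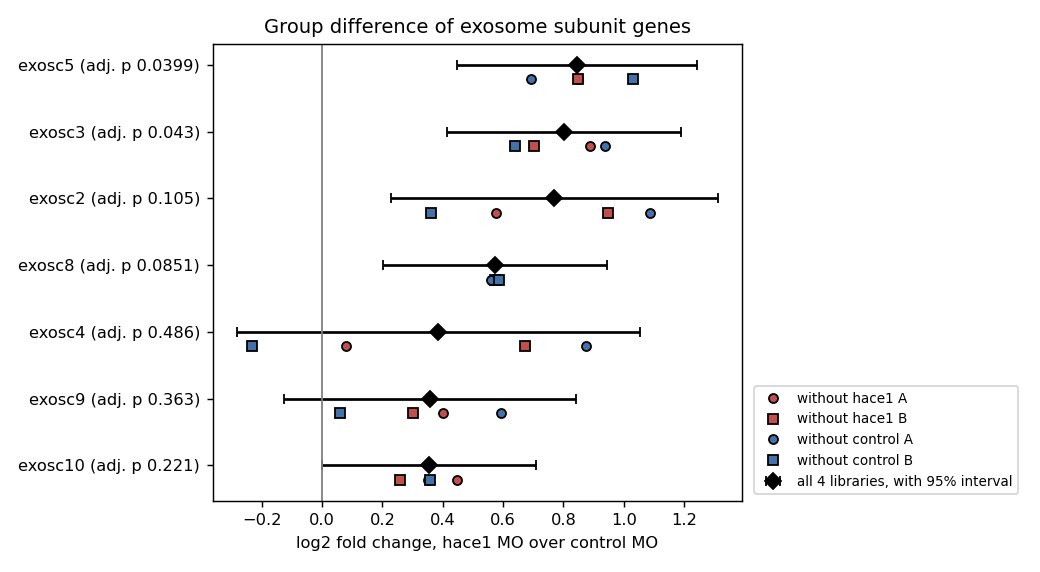
Log2 fold change (hace1 MO over control MO) of each quantified exosome subunit gene with all 4 libraries (diamonds, bars are 95% intervals from limma-voom) and with 1 library left out (red and blue symbols, named in the legend). All diamonds lie above 0 and the intervals of all 7 genes overlap each other; the value without control B is below 0 for exosc4 (-0.23).

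Over all genes the difference between groups moved with exonic length, with the lowest median log2 fold change (-0.12) in the longest of 5 length classes. The part of length in the differences of the 7 genes was not tested. Of the members 6, all but exosc10, were in the shortest of 5 length classes (102 to 1463 bases of merged exons), where the median log2 fold change was 0.06 and 42 genes were called higher and 12 lower. Exosc10 (2964 bases) was in the second longest class, where the median was -0.01. With each library corrected for its trend on length, the log2 fold changes were 0.76 for exosc3 (limma-voom adjusted p = 0.0732) and 0.78 for exosc5 (0.056). Neither was then called, and 116 genes were called over all.

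The authors' own deposited log2 values, centred on the median of each gene, gave the same order of libraries. For the 7 genes these values are the same counts after another scaling, so the shared order is not separate evidence. In that table exosc5 was at 0.35 and 0.35 in hace1 A and B, against -0.72 and -0.35 in control A and B, and exosc3 at 0.29 and 0.48, against -0.29 and -0.55. Limma on those values gave differences of 0.88 and 0.81, with an adjusted p of 0.171 for both, and called 1 gene over the whole table. The difference was above 0 for each of the 7 genes, from 0.34 for exosc9 to 0.88 for exosc5.

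Levels can be compared between genes only per length, and here they are given in CPM per kilobase of merged exons. Exosc5 had the highest mean in both groups, at 61.2 CPM per kb in each of hace1 A and B, against 29.7 and 38.0 in control A and B. In control A, exosc4 (35.9) and exosc3 (32.3) were above exosc5. Exosc9 was the least abundant, at 11.4 and 12.3 in hace1 A and B, against 11.3 and 7.88 in control A and B. By group means the order was exosc5, exosc3, exosc4, exosc8, exosc10, exosc2 and exosc9 in both groups. In hace1 morphants exosc4 and exosc8, and exosc10 and exosc2, overlapped, while each other neighbouring pair was apart in both libraries. In controls exosc5 overlapped exosc3, exosc3 overlapped exosc4 and exosc4 overlapped exosc8. The order within these pairs differed between control A and control B. Exosc2 overlapped exosc9 across control libraries, but was above it within each (15.9 against 11.3 in A, 9.74 against 7.88 in B). Exosc8 was above exosc10, and exosc10 above exosc2, in both control libraries.

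**Figure D3:**
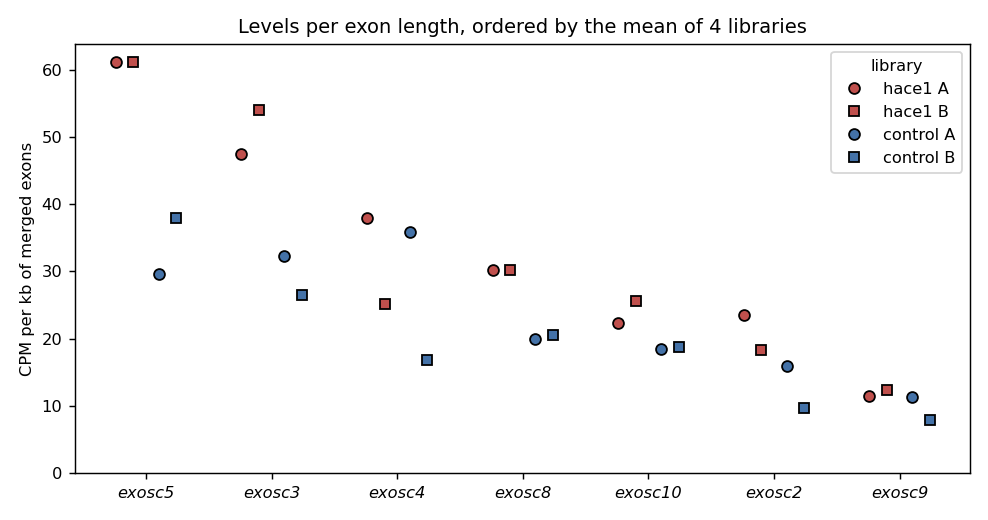
Level of each quantified subunit gene in CPM per kb of merged exons in each library, ordered by the mean of the 4 libraries (red, hace1 MO; blue, control MO; circles, A; squares, B). Exosc5 and exosc3 are highest in the hace1 libraries, at 47.6 to 61.2, and exosc9 is lowest in every library, at 7.88 to 12.3.

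Summed over the 7 genes, the level was 234 and 227 CPM per kb in hace1 A and B, against 164 and 138 in control A and B. Of this sum, exosc5 made up 26.1% and 27.0% in hace1 A and B, against 18.2% and 27.5% in control A and B, and its share in control B was as high as in the hace1 libraries. Exosc10 made up 9.54% and 11.3% in hace1 A and B, against 11.3% and 13.6% in control A and B. The share of exosc3 was 20.3% and 23.9% in hace1 A and B, against 19.8% and 19.2% in control A and B. That of exosc9 was 4.89% and 5.42%, against 6.90% and 5.69%. The shares of exosc2, exosc4 and exosc8 overlapped between groups. The ratio of exosc3 to exosc10 per length was 2.13 and 2.12 in hace1 A and B, against 1.75 and 1.41 in control A and B. This ratio sets a called gene over one not called, and most ratios between the 7 genes were not computed. The group of the cap genes exosc2 and exosc3 summed to 71.1 and 72.3 in hace1 A and B, against 48.2 and 36.3 in control A and B, and that of the 4 ring genes to 141 and 129, against 96.7 and 83.3. These sums are descriptions of a family with 3 members unquantified.

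The deposited exon counts showed how the differences were spread along each transcript. Overlapping exon lines were merged into 71 exon regions over the 7 genes, of which 67 had enough counts (a total of at least 15). In 56 of the 67 the hace1 mean was above the control mean. Both hace1 libraries lay below both control libraries in 2 of the 67. The shares of all exon regions with either of these patterns were not computed. The counts of 56 and 2 thus cannot be judged against all regions and are not read as a result. Both hace1 libraries lay above both control libraries in 41 of the 67, as they did in 21.3% of the 74770 exon regions over all genes. Exosc3 had both hace1 libraries above both controls in 4 of 4 regions, exosc8 in 9 of 10 and exosc10 in 15 of 24. For exosc5 it was 4 of 6, for exosc2 5 of 8, for exosc9 4 of 12 and for exosc4 0 of 3. Regions of 1 gene share its libraries and are not replicates.

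**Figure D4:**
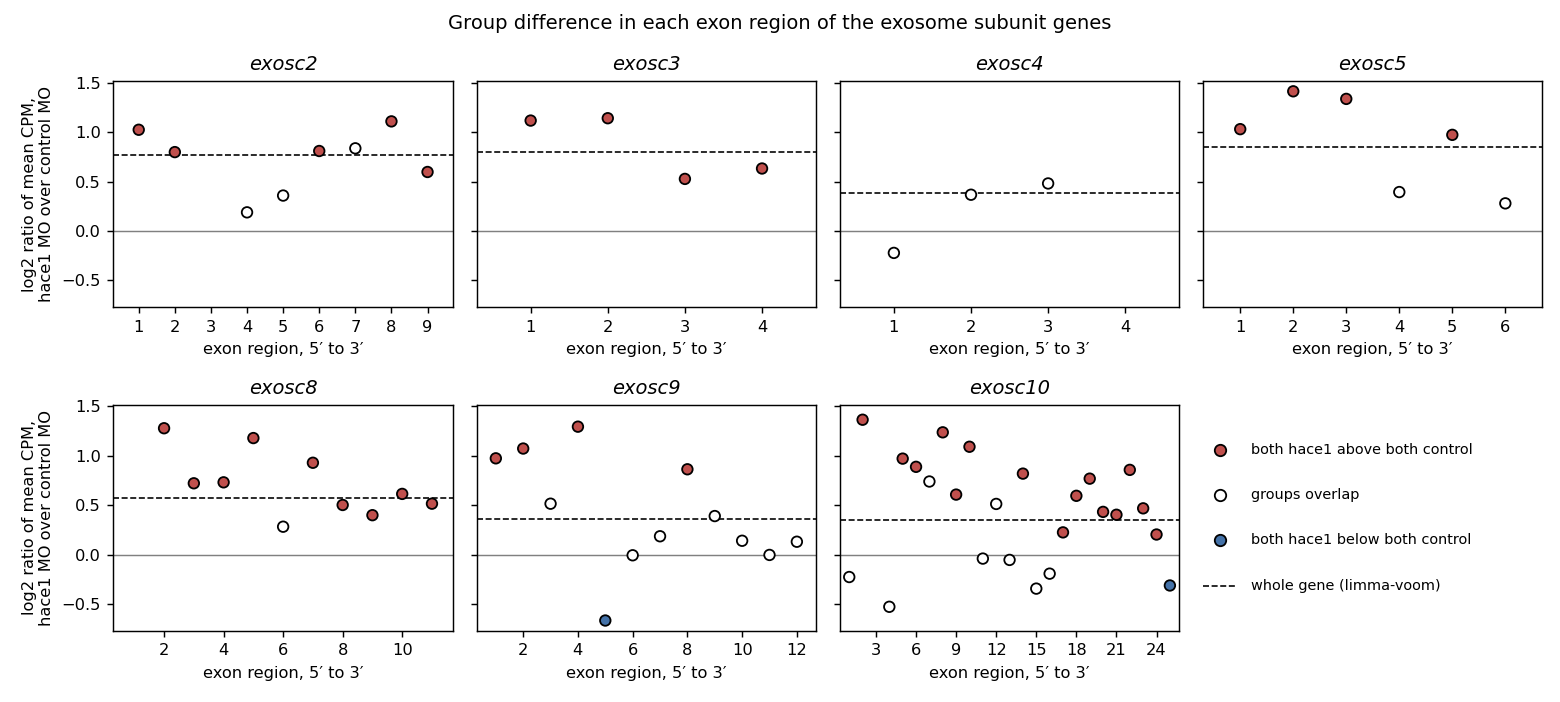
Log2 ratio of mean CPM (hace1 MO over control MO) in each exon region with enough counts, numbered 5′ to 3′ along each gene; the dashed line is the whole-gene log2 fold change and the fill says whether the groups overlap. The ratios of exosc3 are 1.12 and 1.14 in its first 2 regions and 0.53 and 0.63 in its last 2, and the last region of exosc10 lies below 0 (-0.31).

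Exon use did not pass the test for any of the 7 genes (limma diffSplice F test, adjusted p = 1 for each), nor for any of the 8445 genes tested (0%, with 282 at an unadjusted p below 0.05). Of the 74770 single exon regions, 0.00267% were called, and none of these lay in a subunit gene. In exosc5 the log2 ratios were 1.03, 1.41 and 1.34 in the first 3 regions and 0.39, 0.97 and 0.28 in the last 3. In exosc10, 17 of the 24 tested regions had a log2 ratio above 0, a count likewise without a share over all regions. Of the 7 below 0, only the last region (14915559 to 14915791) had both hace1 libraries below both controls. It had 11.2 and 9.46 CPM in hace1 A and B, against 13.0 and 12.5 CPM in control A and B, and held 16.9% and 12.5% of the gene's count, against 23.7% and 22.5%. Its difference relative to the gene's other regions was -0.79 on the log2 scale (unadjusted p = 0.00597, diffSplice adjusted p = 1). The last region of each member was then left out of its count, a setting chosen after these values were seen. The log2 fold change of exosc10 was then 0.50 (limma-voom adjusted p = 0.115), against 0.35 with all regions. As the region left out was below 0, its removal raised the value by construction. Over the 18 other settings the log2 fold change of exosc10 ran from 0.20 to 0.50.

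Coverage along transcripts also differed between libraries. Over 9700 tested genes with at least 4 exon regions, the median share of a gene's count in its 5′ exons (those before the midpoint of its exonic length) was 34.6% and 35.4% in hace1 A and B, against 39.2% and 35.6% in control A and B, so that control A stood apart. Exosc5 had 36.7% and 37.3% in hace1 A and B, against 29.9% and 25.8% in control A and B. Exosc10 had 30.8% and 34.1% in hace1 A and B, against 26.8% and 29.2% in control A and B. These 2 members had both hace1 libraries above both controls in this share, as had 10.5% of the 9700 genes, while the other 5 overlapped. The part of coverage in the group differences was not tested.

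The DIS3 family encodes the other nucleases of the pathway. Dis3, the main catalytic subunit, had 29.0 and 28.2 CPM in hace1 A and B, against 19.1 and 24.8 CPM in control A and B. The groups did not overlap, and the log2 fold change was 0.37 with an SE of 0.19 (limma-voom adjusted p = 0.268, from 0.0408 without control B to 0.73 without hace1 A). Dis3l2, which acts apart from the exosome on uridylated RNA, had a log2 fold change of -0.14 with an SE of 0.18 (limma-voom adjusted p = 0.69), and dis3l was listed at 0.

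Of 20 annotated genes for nuclear exosome cofactors, 12 were listed at 0, including skiv2l2 (the MTR4 helicase), mphosph6 and c1d. Of the 8 tested, 1 rose and 0 fell. It was nvl, an AAA ATPase of ribosome assembly that binds the MTR4 helicase in human cells, with 46.3 and 52.6 CPM in hace1 A and B, against 32.5 and 26.5 CPM in control A and B. Both hace1 libraries were above both controls, and the log2 fold change was 0.76 with an SE of 0.18 (limma-voom adjusted p = 0.0474). This call was nearer the threshold than those of exosc3 and exosc5. Of 18 other settings 10 did not call nvl, against 6 for exosc3 and 5 for exosc5. The log2 fold change of nvl ran from 0.59 to 0.90 over these settings. The other 7 lay between -0.13 for zc3h3 and 0.34 for nrde2. The cytoplasmic SKI complex is a helicase assembly that feeds RNA to the exosome. Of the 4 tested genes listed here for the complex and its partners, 0 were called, from -0.08 for aven to 0.31 for hbs1l. Skiv2l, the helicase of the complex, had a log2 fold change of 0.25 with an SE of 0.20 (limma-voom adjusted p = 0.482), and TTC37 was listed at 0.

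Of the 9 tested genes of decapping and of decay from the 5′ end, 0 were called and 7 were above 0 (median log2 fold change 0.24). Patl1, a decapping activator, was at 0.34 ± 0.18 SE (limma-voom adjusted p = 0.282), and lsm6, of the LSM ring that binds shortened tails, at 0.24 ± 0.21 SE (0.547). Of the 16 tested deadenylation genes 0 were called and 11 were above 0 (median 0.25). The poly(A)-binding protein gene pabpc1a was at 0.38 ± 0.20 SE (limma-voom adjusted p = 0.287) and cnot1, the scaffold of the CCR4-NOT complex, at -0.23 ± 0.18 SE (0.492). Of the 8 tested genes of nonsense-mediated decay 0 were called and 4 were above 0 (median 0.07). Smg1, the kinase of that pathway, was at -0.03 ± 0.19 SE (limma-voom adjusted p = 0.937) and casc3, of the exon junction complex, at 0.45 ± 0.21 SE (0.238). The median of the exosome subunit genes, 0.57, was above each of these list medians, with no test of the difference between lists. With library totals as the scaling the medians were 0.42 for the subunit genes, -0.04 for the DIS3 family, -0.02 for the nuclear cofactors and -0.08 for nonsense-mediated decay, and those of the remaining decay lists stayed above 0. With quantile normalization that of nonsense-mediated decay was -0.01. Single libraries also moved these medians: without control B they were 0.36 for the subunit genes, 0.31 for deadenylation, -0.06 for SKI and -0.12 for nonsense-mediated decay. Without control A that of decapping was 0.09 and that of the subunit genes 0.69.

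**Figure D5:**
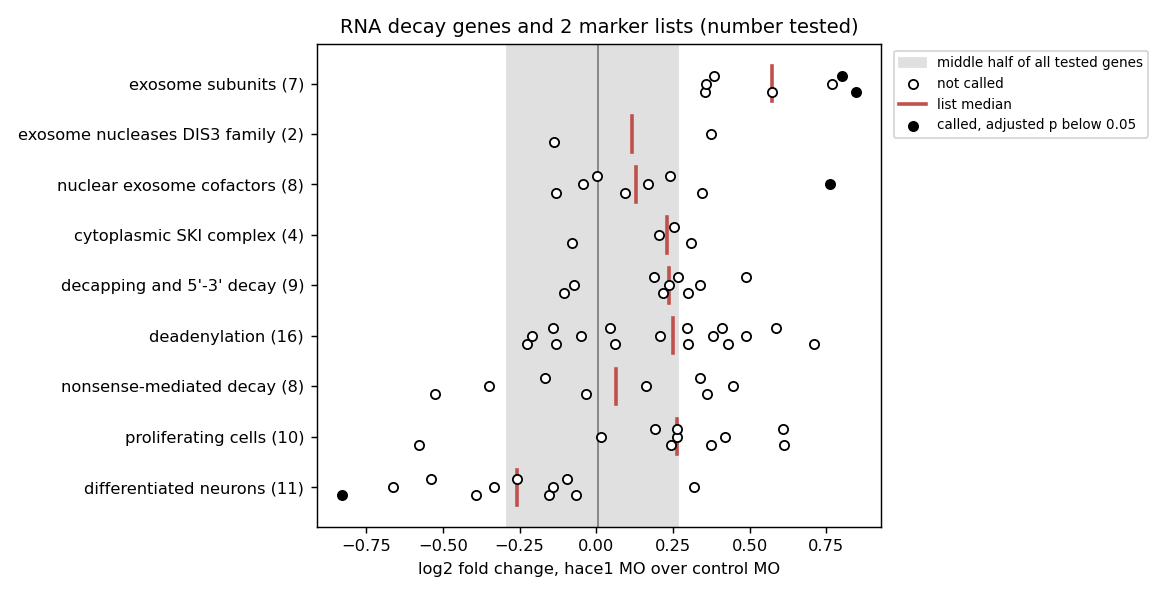
Log2 fold change (hace1 MO over control MO) of each tested gene in the RNA decay lists and 2 marker lists; filled points were called at an adjusted p below 0.05, red ticks are list medians, and the grey band runs between the quartiles of all tested genes. All 7 exosome subunit genes lie to the right of the band, whose upper edge is at 0.27.

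Markers of cell types were set beside these values. Of 22 annotated markers of proliferating cells, 12 were listed at 0, including pcna, cdk1 and top2a. Of the 10 tested, 0 were called and 9 were above 0 (median log2 fold change 0.26), with mcm7 at 0.61 ± 0.19 SE and rrm1 at 0.02 ± 0.21 SE (limma-voom adjusted p = 0.0905 and 0.974). Their summed level was 3398 and 3540 CPM in hace1 A and B, against 2889 and 2695 CPM in control A and B, but mcm7 held much of this sum. Without mcm7, a split made after the values were seen, the other 9 summed to 1860 and 1955 CPM in hace1 A and B, against 1893 and 1639 CPM in control A and B, and the groups overlapped. The 1 tested marker below 0 was rrm2 (-0.58, limma-voom adjusted p = 0.109). Of 11 tested neuron markers 0 rose and 1 fell (gad2, -0.83 ± 0.16 SE, limma-voom adjusted p = 0.0293), 1 was above 0, and the summed level was 1768 and 1926 CPM in hace1 A and B, against 1903 and 2427 CPM in control A and B. Of 15 tested whole-embryo tissue markers 1 rose, the erythroid factor gene gata1a (1.40 ± 0.26 SE, limma-voom adjusted p = 0.0276). Of these 15 markers 11 were above 0 (median log2 fold change 0.22). Without control B the median was 0.44 for tissue markers, 0.23 for proliferating cells and -0.13 for neurons, against 0.36 for the subunit genes. The subunit median was thus not the highest of all lists in that setting. The calls of gad2 and gata1a were lost without hace1 A, without hace1 B and with the authors' log2 values, and that of gad2 also with the length correction. The part of the makeup of cell types in the exosome gene differences was not tested.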

How the data were processed

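Per the submitters' processing notes, the build was Zv9, and Bowtie2 2.0.2, TopHat2 2.0.6, cutadapt 1.2.1 and DESeq were used. The counting program and its strand setting are not given in these notes or the labels. The authors deposited estimated counts (94.2% of values above 0 were not whole) per gene and exon, and a table of log2 values. For the 7 quantified members, and for 98.9% of the 12216 genes counted (1 or more) in every library, those log2 values equalled within 0.001 the median-centred log2 of the count over a median-of-ratios size factor. A value of 0 in all libraries was given for 19279 of the 32512 genes, and 19276 of these had no exon lines. No annotated gene overlapped a member.

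Samples were grouped by the morpholino in the labels. The test covered the 10832 genes with a total of 15 or more and, in 2 libraries, at least the CPM that equals 10 counts in a library of median size. Library sizes were scaled by trimmed means of M-values (TMM, 30% trim on the log ratio, 5% on the mean level), computed over the tested genes with an own implementation, and CPM uses the scaled sizes. The test was limma-voom (limma 3.58.1, R 4.3.3) with group as the only term. The edgeR test was not run. Exon lines that overlap were merged and summed, and exon use was tested with diffSplice on regions with a total count of 15 and a count of 5 in 2 libraries. The code was tested on simulated data. Nothing in the labels says that the pools came from separate clutches, so the p-values rest on a spread between pools that may be technical only.

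The members and gene lists were chosen with earlier results of these data known. Named were all 10 members, hace1, the DIS3 family and, of each other list, up to 4 called genes with the smallest adjusted p or the 2 tested genes of highest mean CPM where none was called. The extremes zc3h3 and nrde2, skiv2l, rrm2, the markers mylpfa, krt4, hbae3 and elavl3, and genes named as listed at 0 were added after their values were seen. Alternatives were other scalings, a length correction, other filters, limma-trend, the authors' log2 values, quality weights, robust variance, a replicate block and each library left out.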

Additional observations from a re-analysis of the deposited data

How the results depend on the processing

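Of 126 refits of the 7 subunit genes (18 settings each), 125 kept a log2 fold change above 0. The exception was exosc4 without control B (-0.23, against 0.87 without control A). These refits reuse the same libraries and are not independent, and robust variance cannot change a fold change. The setting without the last exon regions, counted among the 18, was chosen after values were seen. With the settings of the report 298 genes were called, 2 of them subunit genes. Over all genes the count was 628 with library totals, where the median log2 fold change of all genes was -0.14. The count was 186 with quantile normalization, 116 with the length correction, 1 with the authors' log2 values and 653 with library quality weights. It ranged from 6 to 2568 with 1 library left out, the lowest without hace1 B and the highest without control B. Of the subunit genes, 1 was called with library totals, 0 with quantile normalization, 0 with the length correction, 0 with the authors' values, and 0 to 5 with 1 library left out. The fits that leave out 1 library assume that the lone library of a group varies like the others. Genes with changed exon use numbered 0 to 159 with 1 library left out, the highest without control B. The summed level per length in hace1 morphants was 231 CPM per kb, and 238 when the longest listed transcript gave the length, which changes exosc8 alone. The causes were not tested. The labels do not say whether the letters A and B pair libraries across groups. The differences of A from B in hace1 morphants and in controls had a correlation of 0.01 over 10832 genes. That value cannot exclude a factor shared by letter that acts on some genes. With the letters as a replicate block 915 genes were called and exosc2 joined exosc3 and exosc5 (adjusted p = 0.0342, limma-voom). With the length correction added 825 were called, and exosc2 was not (0.0554).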

Other observations

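Exosc4 and some ratios between subunit genes split the libraries by letter rather than by group, a pattern noticed after the values were seen. The ratios of exosc5 to exosc9 and of exosc3 to exosc10 did not split by letter. Exosc2 was higher in A than in B within each group, but its libraries split by group. How often ratios of other genes split by letter was not tested. The ratio of exosc9 to exosc4 per length was 0.301 and 0.488 in hace1 A and B, against 0.315 and 0.468 in control A and B, so that the A libraries of both groups were alike and the B libraries were alike. The ratio of exosc3 to exosc2 was 2.02 and 2.97 in hace1 A and B, against 2.03 and 2.73 in control A and B, with the same split. The log2 difference of A from B was 0.59 in hace1 morphants and 1.09 in controls for exosc4, and 0.37 and 0.71 for exosc2, while for exosc8 it was within 0.05 of 0 in both groups.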
